A study of Mus musculus with 15 samples.

Results

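The genes described here encode integrins and the proteins that join them to the actin cytoskeleton at focal adhesions. They were listed by name, 38 genes in all, and each was followed through 1 probe set on the array. A probe set counted only if the platform annotation gave it exactly 1 gene, and where a gene had several, the one with the highest mean log2 signal over all 15 arrays was taken. Of the 38 genes, 36 had such a probe set, out of 18193 genes on the array that did, and Fermt1 and Nedd9 are not analysed here. Testing was kept to genes whose signal exceeded the array's own median on 3 or more of the 15 arrays, which left 33 members and 11458 genes in all. Itga5, Itgb3 and Parvb lay below the median on all 15 arrays and were not tested.

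The samples were mammospheres, floating spheres of cells grown without serum in EGF, FGF and B27, from primary mammary tumour cells of FVB/N mice with the MMTV-PyMT transgene. In this transgene the mouse mammary tumour virus promoter drives the polyoma middle T oncogene, so all groups, the vehicle group included, carry it. After 10 days of culture the spheres were treated for 2 days with TAE226 (a Fak inhibitor), PP2 (a Src inhibitor), DAPT (a Notch inhibitor), U0126 (a Mek1 inhibitor) or vehicle, with 3 biological replicates in each of the 5 groups. No source used here gives the inhibitor doses. The labels do not say whether replicates came from separate mice, so the spread behind each p-value is that between these cultures and may in part be technical.

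Integrins are paired α and β receptors that bind the extracellular matrix on the outside of the cell and, through talin and kindlin, the actin cytoskeleton on the inside. Once engaged they recruit FAK and Src family kinases, which phosphorylate adaptors such as p130Cas (Bcar1) and paxillin (Pxn), while the ILK, PINCH and parvin complex, vinculin, filamin and α-actinin carry the mechanical link. In mammary epithelium, integrin α6β4 and the β1 integrins hold cells on laminin, and αvβ6 and αvβ8 are known for activating latent TGF-β. Polyoma middle T itself binds and activates Src family kinases.

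The deposited values were MAS5 signal intensities, whose mean after trimming 2% at each end was 500 on each array, and array medians ran from 66.0 to 91.0. Levels are given below as log2 of that signal, and differences as log2 fold changes with their standard error (SE). A gene is called higher or lower where limma's adjusted p, by Benjamini-Hochberg over the 11458 genes, was under 0.05. The luminal markers Epcam, Cdh1, Krt8, Krt18, Krt19, Cldn3 and Cldn7 were above the array median on at least 1 array of every group, 7 of 7. Of 8 basal or myoepithelial markers, 6 were so too and Myh11 and Cnn1 were not. Of 8 fibroblast markers, Col1a1, Col3a1, Dcn, Lum, Pdgfrb and Fap were below it in every group, as were 6 of 7 endothelial markers. Leukocyte markers were mixed, 7 of them having a probe set. Ptprc and Lyz2 were below the median in every group. Cd14 was above it on all 15 arrays, Csf1r on 11, Adgre1 on 7, Cd68 on 5 and Cd3e on 1.

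Under TAE226, members that changed against vehicle were nearly all higher on the deposited scale. Of 33 members, 15 were higher (45.5%) and 1 lower, against 15% higher and 15.9% lower among all 11458 genes (30.9% in either direction). The 15 were the integrin subunits Itgb6, Itgb5, Itgb8, Itga3 and Itgav, the talin Tln1, vinculin (Vcl), the complex members Parva, Ilk and Lims1, the adaptor Bcar1, and the actin linkers Flna, Actn1, Enah and Zyx. No member was called and at least 2-fold changed, which 2.8% of all genes were. The median log2 fold change was 0.20 over the members and 0.02 over all genes. These counts depend on the scaling: with every array centred on the median of its probe sets, 4 members were higher (Bcar1, Flna, Itgb6 and Parva) and 6 lower, against 3.69% and 37.2% of all genes. On that scale the median change of all genes was -0.24 and that of the members -0.05.

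Under PP2 the members moved both ways. Of 33 members, 11 were higher (33.3%) and 8 lower (24.2%) than in vehicle, against 25.9% higher and 26.9% lower among all genes (52.8% in either direction), so these shares lay near the background. The higher ones were Tln2, Parva, Bcar1, Tns1, Git1, Tln1, Enah, Itgb8, Ilk, Actn4 and Tns3, and the lower ones Cav1, Pdlim7, Vcl, Itgb4, Itgb5, Vasp, Flna and Fermt2. Cav1, Parva, Pdlim7 and Tln2 were called and at least 2-fold changed, 4 of 33 members against 9.09% of all genes. The median log2 fold change was -0.02 over the members and 0.02 over all genes. With median centring, 3 members were higher (Bcar1, Parva and Tln2) and 13 lower, against 10.5% and 38.1% of all genes, and the median change was -0.20 over all genes and -0.23 over the members.

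**Figure D1:**
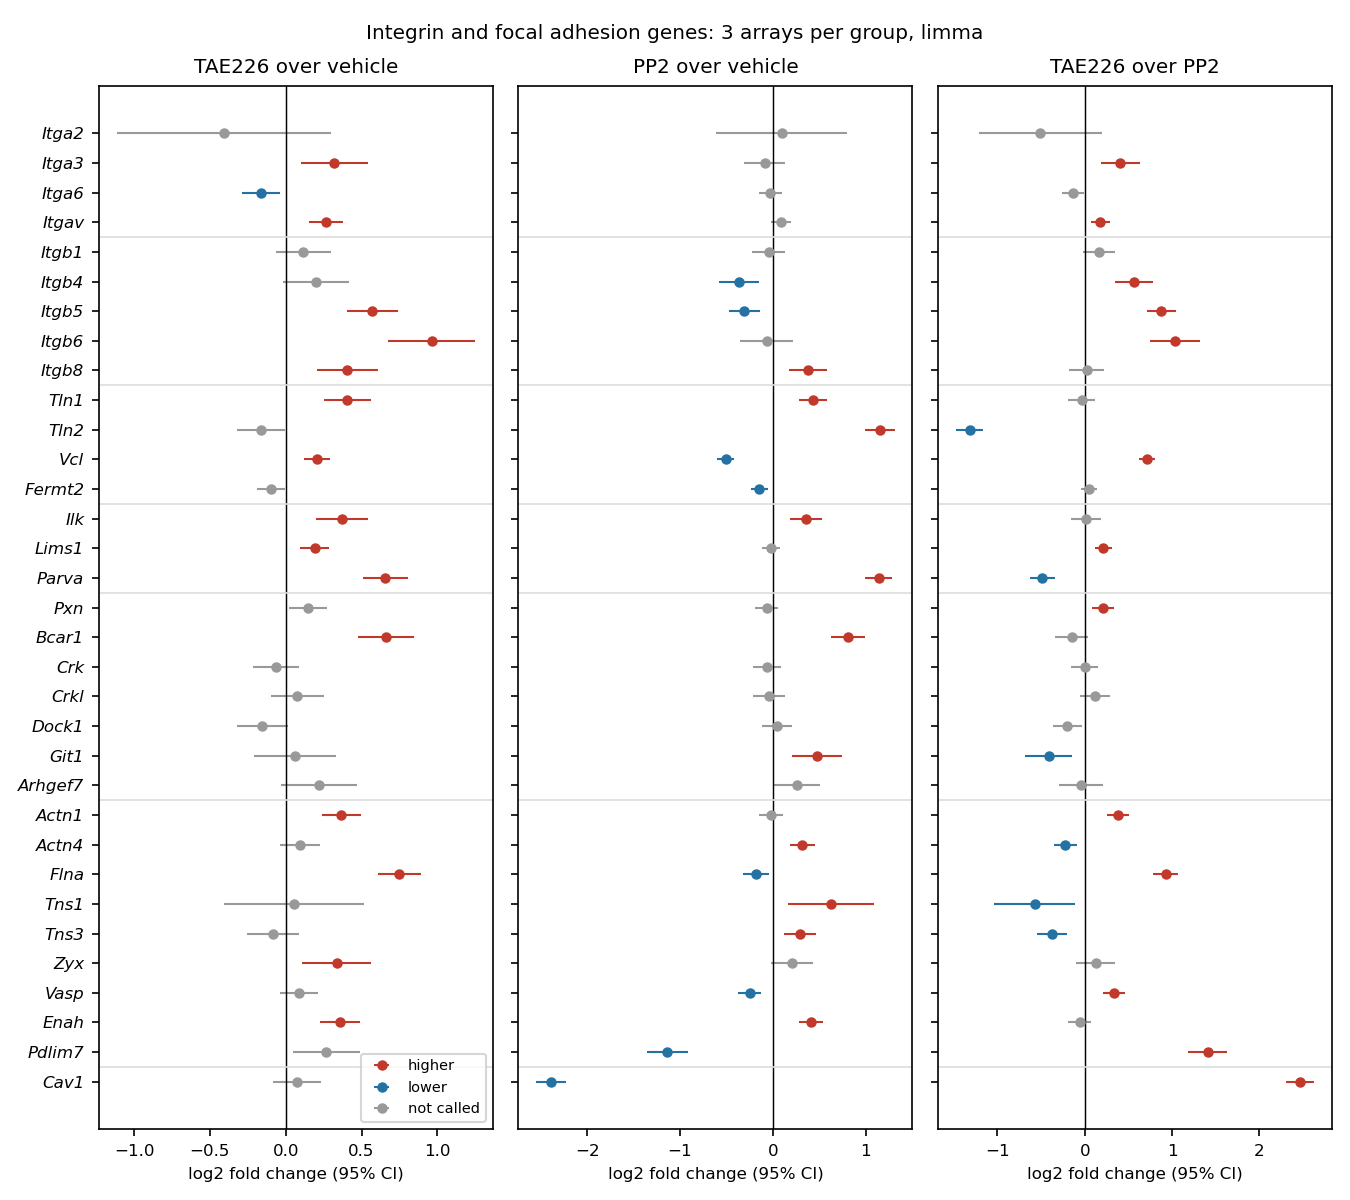
Log2 fold change of each tested member, with its 95% interval from limma, for TAE226 over vehicle, PP2 over vehicle and TAE226 over PP2, ordered by role; each panel has its own x scale. Cav1 lies at -2.39 under PP2 and 0.08 under TAE226, and most integrin β and complex members lie right of 0 under TAE226.

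Setting TAE226 directly against PP2 leaves vehicle out. TAE226-treated spheres were higher in 13 members (39.4%) and lower in 6 (18.2%), against 23.3% and 20.2% of all genes (43.5% in either direction). Cav1, Itgb6, Pdlim7 and Tln2 were called and at least 2-fold different, 4 of 33 against 7.1%. The 13 were Cav1, Pdlim7, Itgb6, Flna, Itgb5, Vcl, Itgb4, Itga3, Actn1, Vasp, Lims1, Pxn and Itgav. The 6 were Tln2, Tns1, Parva, Git1, Tns3 and Actn4. Here centring moved the counts less, to 10 higher and 6 lower, against 15.7% and 17.0% of all genes. The calls of Itgav (adjusted p = 0.229), Lims1 (adjusted p = 0.148) and Pxn (adjusted p = 0.161) were those lost in limma with centring. The comparisons of TAE226 and of PP2 with vehicle share the 3 vehicle arrays, so they are given side by side and not as support for each other.

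Among integrin α subunits, of which 4 were tested, PP2 changed none past the test and TAE226 raised Itga3 and Itgav. Of all genes, 52.8% were called under PP2 and 15% were higher under TAE226. Itgav encodes αv, the partner of β5, β6 and β8. Its log2 signals were 12.97, 12.86 and 12.99 under TAE226, 12.77, 12.77 and 12.74 under PP2 and 12.71, 12.63 and 12.68 in vehicle. All TAE226 arrays lay above all others of these 3 groups, by a log2 fold change of 0.27 (SE 0.05, adjusted p = 0.000895) over vehicle and 0.18 (SE 0.05, adjusted p = 0.0101) over PP2 in limma. After median centring these Itgav values were 0.01 (limma adjusted p = 0.925) and 0.14 (limma adjusted p = 0.229). Itga3, a laminin receptor subunit, had log2 signals of 9.39, 9.53 and 9.76 under TAE226, 9.23, 9.14 and 9.10 under PP2 and 9.36, 9.09 and 9.27 in vehicle. Its TAE226 arrays lay just above those of vehicle and clear of those of PP2. It was higher by 0.32 (SE 0.10, adjusted p = 0.0281) over vehicle, a limma call that ended when vehicle replicate 2, TAE226 replicate 2 or TAE226 replicate 3 was left out (adjusted p 0.0536 to 0.153). Median centring brought this Itga3 value to 0.07 (limma adjusted p = 0.658). Itga6, the laminin receptor subunit that pairs with β4, had log2 signals of 12.21, 12.20 and 12.18 under TAE226, 12.23, 12.45 and 12.32 under PP2 and 12.36, 12.42 and 12.29 in vehicle. It was the 1 member lower under TAE226, at -0.16 (SE 0.06, adjusted p = 0.0466). That limma call ended on leaving out any of 5 arrays (adjusted p 0.0717 to 0.167), and a second Itga6 probe set stood at 0.15 (adjusted p = 0.0706).

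Of 5 tested integrin β subunits, TAE226 raised 3, against 15% of all genes. PP2 raised 1 and lowered 2, against 25.9% and 26.9% of all genes. Itgb6, the epithelial subunit of αvβ6, had log2 signals of 7.96, 7.90 and 7.98 under TAE226, 7.19, 6.90 and 6.67 under PP2 and 6.97, 6.94 and 7.04 in vehicle. The TAE226 arrays stood apart from both other groups, which overlapped each other. The log2 fold change was 0.96 (SE 0.14, adjusted p = 4.3e-05) for TAE226 over vehicle, -0.07 (SE 0.14, adjusted p = 0.705) for PP2 over vehicle and 1.03 (SE 0.14, adjusted p = 1.1e-05) for TAE226 over PP2 in limma. Itgb5, another αv partner and a vitronectin receptor subunit, had log2 signals of 10.64, 10.54 and 10.65 under TAE226, 9.81, 9.69 and 9.71 under PP2 and 10.02, 10.12 and 9.99 in vehicle. Its 3 groups did not overlap, TAE226 being above vehicle by 0.57 (SE 0.08, adjusted p = 3.9e-05) and PP2 below it, at -0.31 (SE 0.08, adjusted p = 0.00374), in limma. With median centring the TAE226 difference of Itgb5 was 0.32 (adjusted p = 0.054).

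Itgb4, which with α6 forms the receptor of hemidesmosomes, had log2 signals of 11.20, 11.43 and 11.24 under TAE226, 10.65, 10.73 and 10.78 under PP2 and 11.20, 10.98 and 11.08 in vehicle. PP2 was below TAE226 and vehicle on all 3 arrays, at -0.37 (SE 0.10, adjusted p = 0.00691) against vehicle in limma. TAE226 overlapped vehicle (0.20, SE 0.10, adjusted p = 0.159). Itgb8, the β8 subunit of αvβ8, had log2 signals of 12.15, 11.94 and 11.83 under TAE226, 11.99, 11.88 and 11.98 under PP2 and 11.67, 11.68 and 11.35 in vehicle. Both inhibitor groups lay above vehicle and overlapped each other. It was higher under TAE226 and under PP2, at 0.41 (SE 0.10, adjusted p = 0.00376) under TAE226 and 0.38 (SE 0.10, adjusted p = 0.00289) under PP2, and these differed from each other by 0.02 (95% interval -0.18 to 0.23). Median centring brought the Itgb8 values to 0.15 (limma adjusted p = 0.397) under TAE226 and 0.16 (limma adjusted p = 0.35) under PP2. Itgb1, the most widely shared β subunit, passed no test on its chosen probe set, with 0.12 under TAE226 and -0.05 under PP2. Its second probe set, nearly as bright in mean log2 signal (11.20 against 11.23), was lower under PP2 at -0.61 (SE 0.10, limma adjusted p = 8.7e-05), so the array gives differing readings of this gene.

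**Figure D2:**
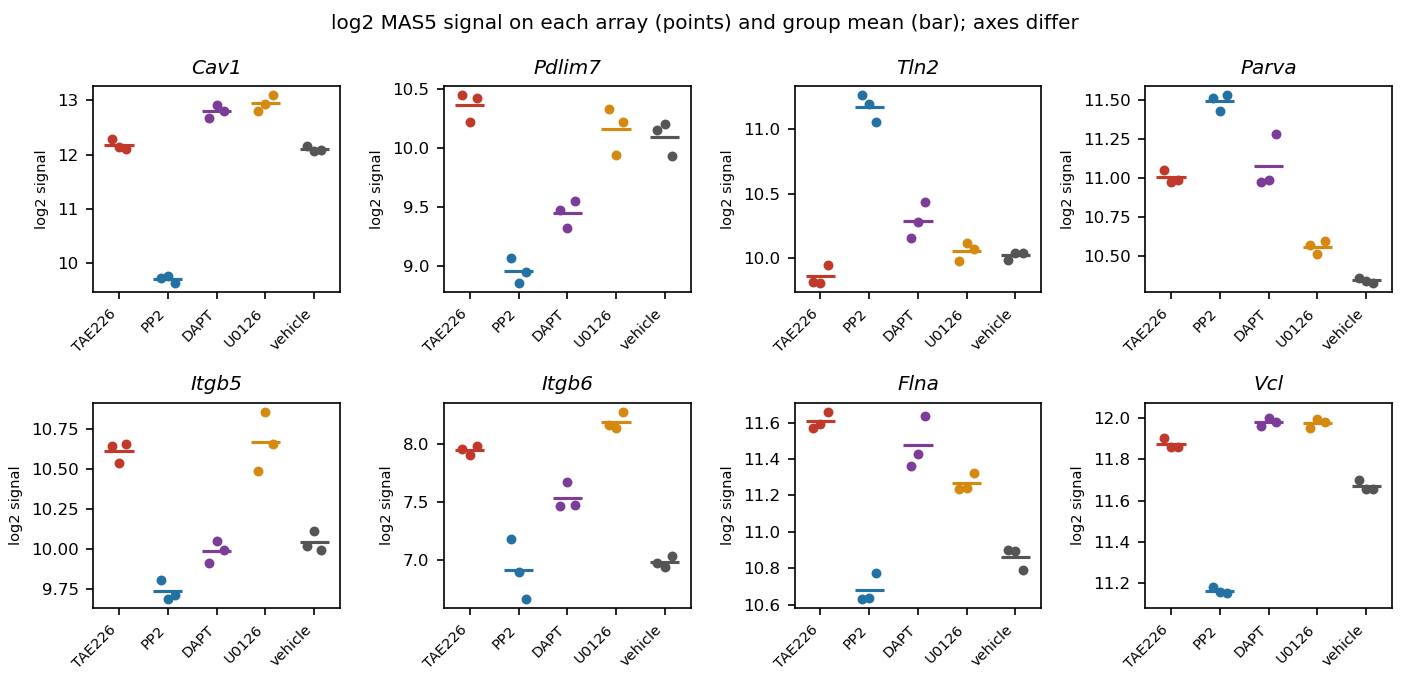
Log2 signal on each of the 3 arrays per group for members named in the text, with a bar at the group mean; y axes differ between panels and do not start at 0. PP2 lies below the other 4 groups in Cav1, and TAE226 and U0126 lie above vehicle in Itgb6 and Itgb5.

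Among the proteins that bind integrin tails and actin, the 2 talins were both called higher under PP2 on the deposited scale. Under TAE226 only Tln1 was called. Tln2, the less widely expressed talin, had log2 signals of 9.81, 9.81 and 9.94 under TAE226, 11.27, 11.20 and 11.05 under PP2 and 9.98, 10.04 and 10.04 in vehicle. PP2 stood above vehicle on every array, by 1.15 (SE 0.08, adjusted p = 1.6e-09), a 2.23-fold difference in limma. TAE226 was below vehicle on every array but did not pass the test (-0.16, adjusted p = 0.111), and TAE226 over PP2 was -1.32 (SE 0.08, adjusted p = 4.9e-10). Tln1, the main talin, had log2 signals of 9.35, 9.33 and 9.32 under TAE226, 9.42, 9.31 and 9.35 under PP2 and 8.93, 8.96 and 8.90 in vehicle. Both inhibitor groups lay above vehicle and overlapped each other, at 0.40 (SE 0.07, limma adjusted p = 0.000469) under TAE226 and 0.43 (SE 0.07, limma adjusted p = 9.5e-05) under PP2. After median centring the Tln1 values were 0.15 (limma adjusted p = 0.2896) and 0.22 (limma adjusted p = 0.1135).

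Vinculin reinforces the link of talin to actin. Vcl log2 signals were 11.90, 11.86 and 11.86 under TAE226, 11.18, 11.15 and 11.15 under PP2 and 11.70, 11.66 and 11.66 in vehicle. The 3 groups did not overlap. In limma, PP2 was lower than vehicle at -0.51 (SE 0.04, adjusted p = 2.6e-08) and TAE226 higher at 0.20 (SE 0.04, adjusted p = 0.0012), although median centring turned the TAE226 value to -0.05 (adjusted p = 0.71). TAE226 over PP2 was 0.71 (SE 0.04, adjusted p = 5.6e-10) in limma. Fermt2, kindlin-2, which activates integrins with talin, had log2 signals of 11.31, 11.35 and 11.30 under TAE226, 11.31, 11.23 and 11.27 under PP2 and 11.41, 11.40 and 11.43 in vehicle. It was lower under PP2 at -0.15 (SE 0.04, limma adjusted p = 0.01). That limma call ended with quantile normalization (adjusted p = 0.0538) and with the mean of all its probe sets (adjusted p = 0.178).

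Filamin A (Flna), which crosslinks actin and binds integrin β tails, followed the order of Itgb5 and Vcl. Its log2 signals were 11.57, 11.59 and 11.66 under TAE226, 10.63, 10.64 and 10.77 under PP2 and 10.90, 10.89 and 10.79 in vehicle. TAE226 was above vehicle by 0.75 (SE 0.07, adjusted p = 3.8e-07) in limma, with no overlap. PP2 was below it, at -0.18 (SE 0.07, limma adjusted p = 0.0325), a call that ended on leaving out vehicle replicate 1 or 2 or PP2 replicate 1 or 2 (adjusted p 0.0941 to 0.11) and with quantile normalization (adjusted p 0.069). On the deposited scale Flna, Itgb5 and Vcl were the 3 members (9.09%) called higher under TAE226 and lower under PP2, against 1.83% of all genes. None of the 3 kept both calls under every alternative processing. Median centring lost the TAE226 calls of Itgb5 and Vcl, and quantile normalization the PP2 call of Flna. The rise was not confined to TAE226. On the deposited scale Flna stood at 0.62 under DAPT and 0.40 under U0126, and Vcl at 0.31 under each, all called in limma. Itgb5 stood at 0.62 under U0126, also called, and at -0.06 under DAPT (limma adjusted p = 0.626). Median centring lost these Vcl calls too (limma adjusted p = 0.178 under DAPT and 0.0807 under U0126).

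Flna, Itgb5 and Vcl were chosen for a look at their promoters because each was called higher under TAE226 and lower under PP2. Itgb6, the member with the largest TAE226 rise, was added. RefSeq gives 2 promoter windows for Itgb6, and that with a CArG box was taken. The other Itgb6 window held no match to the motifs described below. The promoters shown are those of Flna, Itgb5, Vcl and Itgb6. Each is the 250 bases before the RefSeq transcription start (GRCm38.p6), on the strand of the gene, at chrX:74246535-74246784 (minus strand) for Flna, chr16:33829415-33829664 (plus strand) for Itgb5, chr14:20929148-20929397 (plus strand) for Vcl and chr2:60673694-60673943 (minus strand) for Itgb6. Capitals mark matches on either strand to GGAATG, the core of TEAD sites, to TGANTCA, the AP-1 site, or to the CArG box of serum response factor, a run of A and T letters between CC and GG.
Flna: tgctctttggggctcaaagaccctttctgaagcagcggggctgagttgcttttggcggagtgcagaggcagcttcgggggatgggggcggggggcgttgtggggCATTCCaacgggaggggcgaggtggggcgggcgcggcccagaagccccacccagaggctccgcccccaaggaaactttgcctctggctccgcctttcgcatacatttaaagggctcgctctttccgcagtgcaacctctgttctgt
Itgb5: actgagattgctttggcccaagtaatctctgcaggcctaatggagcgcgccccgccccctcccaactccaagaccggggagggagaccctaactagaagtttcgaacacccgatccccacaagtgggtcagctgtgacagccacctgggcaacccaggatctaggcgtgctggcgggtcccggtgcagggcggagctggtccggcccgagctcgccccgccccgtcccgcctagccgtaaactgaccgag
Vcl: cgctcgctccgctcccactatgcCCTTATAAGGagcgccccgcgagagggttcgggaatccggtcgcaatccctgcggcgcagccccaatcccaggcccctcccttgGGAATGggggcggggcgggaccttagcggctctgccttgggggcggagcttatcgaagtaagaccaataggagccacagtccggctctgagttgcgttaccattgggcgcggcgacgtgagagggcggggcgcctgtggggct
Itgb6: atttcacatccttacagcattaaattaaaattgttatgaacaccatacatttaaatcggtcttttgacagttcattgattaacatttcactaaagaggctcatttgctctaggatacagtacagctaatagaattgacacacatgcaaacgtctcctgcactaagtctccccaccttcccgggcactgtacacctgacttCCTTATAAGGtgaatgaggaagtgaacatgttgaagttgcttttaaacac

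In these windows Flna holds a TEAD match on the minus strand at -146 to -141, Vcl a CArG box at -227 to -218 and a TEAD match at -143 to -138, Itgb6 a CArG box at -50 to -41, and Itgb5 none; the CArG box reads the same way on both strands, and no matches overlap. RefSeq windows of 300 bases, 250 before and 50 after the start, were found for 32 of the 38 members. In those, 5 members held a TEAD match (Actn4, Dock1, Flna, Itgb1 and Vcl), 3 an AP-1 match (Actn4, Itga3 and Zyx) and 3 a CArG box (Fermt2, Itgb6 and Vcl). Some members have several windows, and counted by window 5 of 42 held a TEAD match, 3 an AP-1 match and 3 a CArG box. Among all 32851 such windows, 14.7% held the TEAD letters, 7.81% the AP-1 letters and 1.63% a CArG box. Differences between these shares were not tested. A match is a description of the letters and shows no binding.

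The ILK, PINCH and parvin complex ties β integrin tails to actin. All 3 of its tested members were higher under TAE226 on the deposited scale, against 15% of all genes. Only the Parva call held with median centring. Parva (α-parvin) had log2 signals of 11.05, 10.97 and 10.99 under TAE226, 11.51, 11.43 and 11.53 under PP2 and 10.36, 10.34 and 10.33 in vehicle. The 3 groups did not overlap, and the log2 fold changes over vehicle were 0.66 (SE 0.07, adjusted p = 2.0e-06) for TAE226 and 1.14 (SE 0.07, adjusted p = 5.8e-10) for PP2 in limma. A dimmer Parva probe set gave other values: 0.07 (adjusted p = 0.699) under TAE226 and, called the opposite way, -0.33 (adjusted p = 0.032) under PP2. Ilk, the scaffold of the complex, had log2 signals of 10.03, 10.02 and 10.04 under TAE226, 9.94, 10.08 and 10.04 under PP2 and 9.50, 9.84 and 9.64 in vehicle. Both inhibitor groups lay above vehicle, at 0.37 (SE 0.08, limma adjusted p = 0.00209) under TAE226 and 0.36 (SE 0.08, limma adjusted p = 0.00126) under PP2. After median centring these Ilk values were 0.12 (limma adjusted p = 0.444) and 0.14 (limma adjusted p = 0.343). Lims1 (PINCH1), which binds Ilk, had 12.10, 12.20 and 12.19 under TAE226, 11.98, 11.92 and 11.95 under PP2 and 11.96, 11.92 and 12.03 in vehicle, and was higher under TAE226 at 0.19 (SE 0.05, limma adjusted p = 0.00415), and -0.06 with median centring.

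Most adaptors that FAK and Src act on did not pass the test at the RNA level. Of 7 tested, TAE226 raised Bcar1 and PP2 raised Bcar1 and Git1, while Crk, Crkl, Dock1 and Arhgef7 were called in none of the 3 comparisons of TAE226, PP2 and vehicle. Among all genes, 30.9% were called in either direction under TAE226 and 52.8% under PP2. Bcar1 log2 signals were 10.45, 10.21 and 10.11 under TAE226, 10.48, 10.33 and 10.40 under PP2 and 9.65, 9.66 and 9.47 in vehicle. Both inhibitor groups lay above vehicle on every array, by 0.66 (SE 0.09, adjusted p = 2.1e-05) and 0.81 (SE 0.09, adjusted p = 6.8e-07) in limma, and overlapped each other. A second Bcar1 probe set was called higher under both too. Over all 15 arrays the log2 signal ran from 12.22 to 12.53 for Crk, 10.15 to 10.60 for Crkl and 8.71 to 9.35 for Arhgef7. Paxillin was higher under TAE226 than under PP2 by 0.21 (SE 0.06, limma adjusted p = 0.00852), with 0.15 (adjusted p = 0.0754) for TAE226 over vehicle. Git1, which binds paxillin, had log2 signals of 8.19, 8.20 and 7.74 under PP2 and 7.56, 7.56 and 7.60 in vehicle, PP2 replicate 3 lying nearest to vehicle (0.47, SE 0.13, limma adjusted p = 0.00472). Median centring brought the Git1 value to 0.26 (limma adjusted p = 0.141).

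The actin linkers divided. Pdlim7, a PDZ and LIM protein of actin fibres, had log2 signals of 10.45, 10.22 and 10.42 under TAE226, 9.07, 8.86 and 8.95 under PP2 and 10.15, 10.20 and 9.94 in vehicle. PP2 was far below both, at -1.14 (SE 0.10, adjusted p = 1.1e-07) against vehicle, a 2.20-fold lower level in limma. TAE226 over vehicle was 0.27 (adjusted p = 0.0617). Vasp, which extends actin filaments, had log2 signals of 11.72, 11.77 and 11.83 under TAE226, 11.45, 11.43 and 11.42 under PP2 and 11.73, 11.78 and 11.54 in vehicle. It was lower under PP2 at -0.25 (SE 0.06, limma adjusted p = 0.00186), with no overlap. Its relative Enah had log2 signals of 12.19, 12.36 and 12.35 under TAE226, 12.29, 12.45 and 12.33 under PP2 and 11.96, 11.89 and 11.96 in vehicle, and was higher under both TAE226 (0.36, SE 0.06, limma adjusted p = 0.000312) and PP2 (0.41, SE 0.06, limma adjusted p = 3.1e-05). Both comparisons were free of overlap.

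Each of the 2 α-actinins, which crosslink actin filaments, was called under 1 of the 2 kinase inhibitors. Actn1 had log2 signals of 12.89, 12.99 and 13.06 under TAE226, 12.60, 12.63 and 12.55 under PP2 and 12.64, 12.61 and 12.59 in vehicle. TAE226 lay above both other groups, by 0.37 (SE 0.06, limma adjusted p = 0.00019) over vehicle. Actn4 had 13.61, 13.77 and 13.87 under TAE226, 14.00, 13.97 and 13.95 under PP2 and 13.67, 13.62 and 13.69 in vehicle, and was higher under PP2 (0.32, SE 0.06, limma adjusted p = 0.000465), while TAE226 overlapped vehicle. Median centring brought Actn1 under TAE226 to 0.11 (limma adjusted p = 0.3755) and Actn4 under PP2 to 0.10 (limma adjusted p = 0.408). Zyx, a LIM protein of mature adhesions, had 9.27, 9.62 and 9.53 under TAE226 against 9.12, 8.95 and 9.36 in vehicle. It was higher under TAE226 at 0.34 (SE 0.11, limma adjusted p = 0.0244), although 1 vehicle array lay above 1 TAE226 array. The call ended without vehicle replicate 1 or 2 or TAE226 replicate 2 or 3 (adjusted p 0.0662 to 0.128), with median centring (adjusted p = 0.563), with the mean of all its probe sets (adjusted p = 0.0572) and with only the 2 groups compared (adjusted p = 0.0692).

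Tensins link integrin tails to actin in fibrillar adhesions. Tns1 lay close to the array medians, with log2 signals of 6.52, 6.33 and 6.33 under TAE226, 6.78, 7.18 and 6.93 under PP2 and 6.50, 5.81 and 6.69 in vehicle, and vehicle replicate 2 was the lowest. Its PP2 rise of 0.63 (SE 0.22, limma adjusted p = 0.0229) was 0.37 (adjusted p = 0.14) without that array and 0.52 (adjusted p = 0.0922) without PP2 replicate 2. Tns3 had log2 signals of 9.88, 10.04 and 9.95 under TAE226, 10.45, 10.27 and 10.29 under PP2 and 9.96, 9.95 and 10.19 in vehicle. It was higher under PP2 by 0.30 (SE 0.08, limma adjusted p = 0.00549), with -0.08 (adjusted p = 0.478) under TAE226. After median centring the PP2 values were 0.41 (limma adjusted p = 0.117) for Tns1 and 0.08 (limma adjusted p = 0.573) for Tns3.

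Cav1 had the largest log2 fold change over vehicle of any tested member. It encodes caveolin-1, the coat protein of caveolae and a Src substrate that also associates with integrins. Log2 signals were 12.29, 12.14 and 12.11 under TAE226, 9.72, 9.78 and 9.65 under PP2 and 12.16, 12.07 and 12.09 in vehicle. The PP2 arrays lay below all 12 others, while TAE226 and vehicle overlapped. PP2 was lower than vehicle by a log2 fold change of -2.39 (SE 0.08, adjusted p = 3.6e-13), 5.24-fold, and TAE226 over vehicle was 0.08 (SE 0.08, adjusted p = 0.488, 95% interval -0.08 to 0.24) in limma. In bulk RNA, fewer cells of a type and less RNA per cell cannot be told apart. The summed signal of the 8 basal and myoepithelial markers ran from 14097 to 15225 under TAE226, 11973 to 13079 under PP2, 19298 to 19893 under DAPT, 18478 to 21360 under U0126 and 14812 to 15645 in vehicle. Most of that sum was Krt14 on every array, and the single markers did not move as one. In limma, Krt5, Krt14, Krt17 and Trp63 were lower and Oxtr higher under PP2, and Krt5 and Trp63 were lower and Acta2 and Oxtr higher under TAE226. Under DAPT, Krt5, Trp63 and Oxtr were higher and Krt17 lower, and under U0126 Krt14, Krt17 and Oxtr were higher and Krt5 and Trp63 lower. The part of these markers in the results was not tested.

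DAPT and U0126 block Notch and Mek1 signalling. Under DAPT, 16 members were higher and 2 lower than in vehicle, against 16.8% and 17.5% of all genes (34.3% in either direction), with 10 higher and 2 lower under median centring, where the all-gene median was -0.12. The summed signal of the 7 luminal markers was 63457 to 64443 under DAPT and 71002 to 73489 in vehicle, with no overlap. Of these markers Epcam, Krt18 and Krt19 were called lower and Cdh1 higher under DAPT in limma, and their part in the DAPT counts was not tested. Under U0126, 10 were higher and 6 lower, against 19.4% and 21.3% of all genes (40.7% in either direction). With median centring, 7 were higher and 6 lower under U0126, against 10.5% and 21.2% of all genes. Over all 5 groups, limma's F-test passed for 29 of 33 members, against 72.9% of all genes.

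Tns1 rose most under DAPT, with log2 signals of 7.57, 7.46 and 7.80 against 6.50, 5.81 and 6.69 in vehicle (1.27, SE 0.22, limma adjusted p = 0.000243). Tns3 had 11.06, 10.86 and 11.01 under DAPT, against 9.96, 9.95 and 10.19 in vehicle, Itgb8 had 12.29, 12.41 and 12.35 under DAPT, against 11.67, 11.68 and 11.35 in vehicle, and Parva had 10.97, 10.99 and 11.28 under DAPT, against 10.36, 10.34 and 10.33 in vehicle. None of these overlapped. The differences were 0.94 (SE 0.08, limma adjusted p = 1.4e-07) for Tns3, 0.78 (SE 0.10, limma adjusted p = 7.7e-06) for Itgb8 and 0.73 (SE 0.07, limma adjusted p = 3.9e-07) for Parva. Pdlim7 had 9.48, 9.32 and 9.55 under DAPT, against 10.15, 10.20 and 9.94 in vehicle, and was lower at -0.65 (SE 0.10, limma adjusted p = 0.00014). Itga2, the collagen receptor subunit, had log2 signals of 5.17, 4.48 and 5.16 under DAPT, all below their array medians, against 6.35, 6.13 and 5.97 in vehicle (limma adjusted p = 0.00954), and no fold is given because the vehicle level was itself close to the median.

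U0126 raised Itgb6 most, with log2 signals of 8.16, 8.13 and 8.27 against 6.97, 6.94 and 7.04 in vehicle (1.20, SE 0.14, limma adjusted p = 2.2e-06). Enah had 12.95, 12.84 and 12.83 under U0126, against 11.96, 11.89 and 11.96 in vehicle, Cav1 had 12.80, 12.94 and 13.09 under U0126, against 12.16, 12.07 and 12.09 in vehicle, and Actn1 had 13.41, 13.47 and 13.27 under U0126, against 12.64, 12.61 and 12.59 in vehicle. Each U0126 group lay above vehicle with no overlap. Enah rose by 0.93 (SE 0.06, limma adjusted p = 3.7e-09), Cav1 by 0.84 (SE 0.08, limma adjusted p = 1.6e-07) and Actn1 by 0.77 (SE 0.06, limma adjusted p = 2.7e-08). Itgb4 was lower, with 10.78, 10.44 and 10.34 under U0126 against 11.20, 10.98 and 11.08 in vehicle (-0.57, SE 0.10, limma adjusted p = 0.000302). Also lower, each called in limma, were Tns3 at -0.42 (9.54, 9.59 and 9.72 under U0126, against 9.96, 9.95 and 10.19 in vehicle), Itgb8 at -0.39 (11.05, 11.13 and 11.34 under U0126, against 11.67, 11.68 and 11.35 in vehicle) and Dock1, a Rac activator that works with Crk, at -0.31 (10.08, 9.96 and 10.06 under U0126, against 10.25, 10.22 and 10.56 in vehicle). The summed signal of the 7 leukocyte markers with a probe set, most of it Cd14, was 7215 to 7708 under TAE226, 11694 to 12221 under PP2, 8981 to 9169 under DAPT, 2209 to 2424 under U0126 and 11301 to 12454 in vehicle. Ptprc and Lyz2 were below the array median in all 5 groups, and the part of these markers in the results was not tested.

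The comparisons of the 4 inhibitors with vehicle share the vehicle arrays, so their values are given side by side. Bcar1 stood at 0.66 under TAE226, 0.81 under PP2, 0.27 under DAPT and 0.72 under U0126, each called in limma. Its DAPT call ended without vehicle replicate 3, DAPT replicate 2 or DAPT replicate 3 (adjusted p 0.0579 to 0.107) and with median centring (adjusted p = 0.444). Enah stood at 0.36 under TAE226, 0.41 under PP2, 0.41 under DAPT and 0.93 under U0126, each called in limma. With median centring its TAE226 and PP2 values were 0.11 (adjusted p = 0.365) and 0.20 (adjusted p = 0.0809). Parva stood at 0.66 under TAE226, 1.14 under PP2, 0.73 under DAPT and 0.22 under U0126, each called in limma. Its U0126 call ended without U0126 replicate 3 (adjusted p = 0.0601), with median centring (adjusted p = 0.375) and with the mean of all its probe sets (adjusted p = 0.0992). The dimmer Parva probe set was called the opposite way under PP2 and was not called under the other inhibitors. Arhgef7, Crk, Crkl and Itgb1 were called under no inhibitor, as were 27% of all genes.

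**Figure D3:**
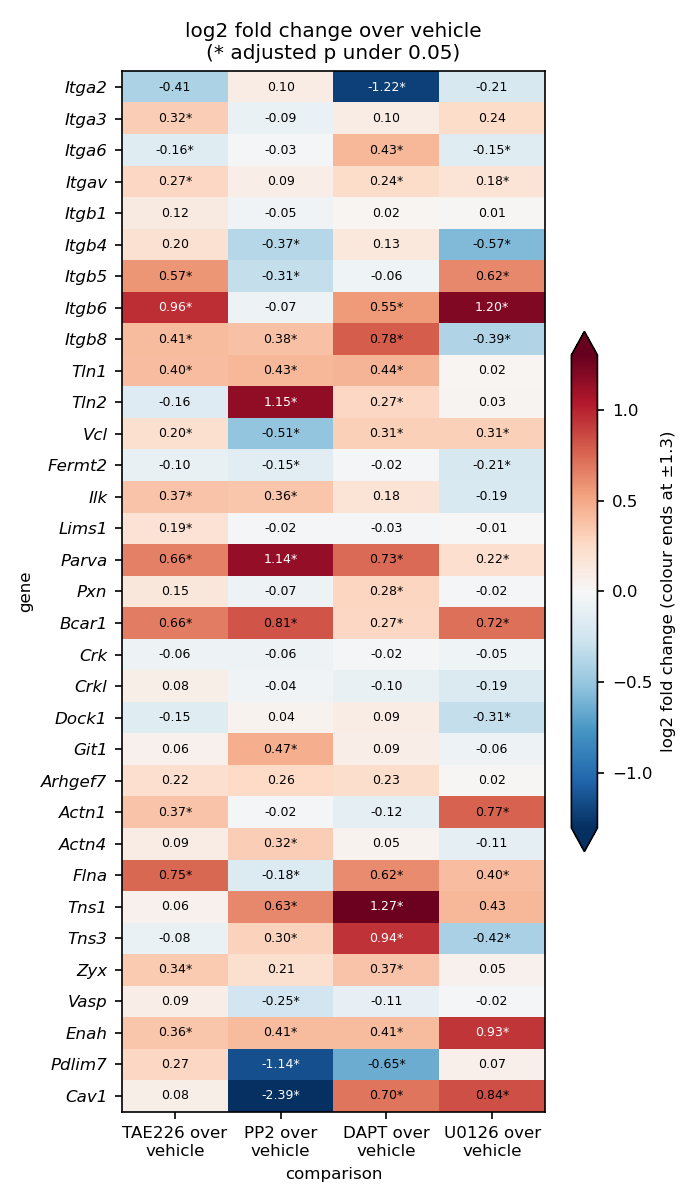
Log2 fold change over vehicle of each tested member (rows, by role) under each inhibitor (columns), with an asterisk where limma's adjusted p was under 0.05; the colours end at a fixed size in either direction, so Cav1 under PP2 (-2.39) lies beyond it. Bcar1, Enah and Parva carry an asterisk in all 4 columns.

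Many members have several probe sets: 27 of the 36 have more than 1, and the 36 have 94 in all. Single probe sets were tested in the same way, with p-values adjusted over the 21299 probe sets above the filter. Of the 16 members called under TAE226, 12 had another probe set above the filter, and in 7 another was called the same way and in none the opposite way. Under PP2 the numbers were 19 called, 10 with another, 8 the same way and 1 (Parva) the opposite way. In TAE226 over PP2 they were 19 called, 12 with another, 6 the same way and 1 (Parva) the opposite way. All 4 Itgb5 probe sets were called higher under TAE226 and lower under PP2, from 0.57 to 0.81 and from -0.91 to -0.31. A second Tln2 probe set gave 2.12 (SE 0.10, limma adjusted p = 4.2e-11) under PP2, more than the chosen one. The actin 3′ to 5′ signal ratio, a measure of RNA quality, was 1.33 ± 0.07 under TAE226, 1.57 ± 0.04 under PP2, 1.35 ± 0.07 under DAPT, 1.28 ± 0.07 under U0126 and 1.42 ± 0.06 in vehicle (SD, n = 3 each). Its part in the results was not tested.

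**Figure D4:**
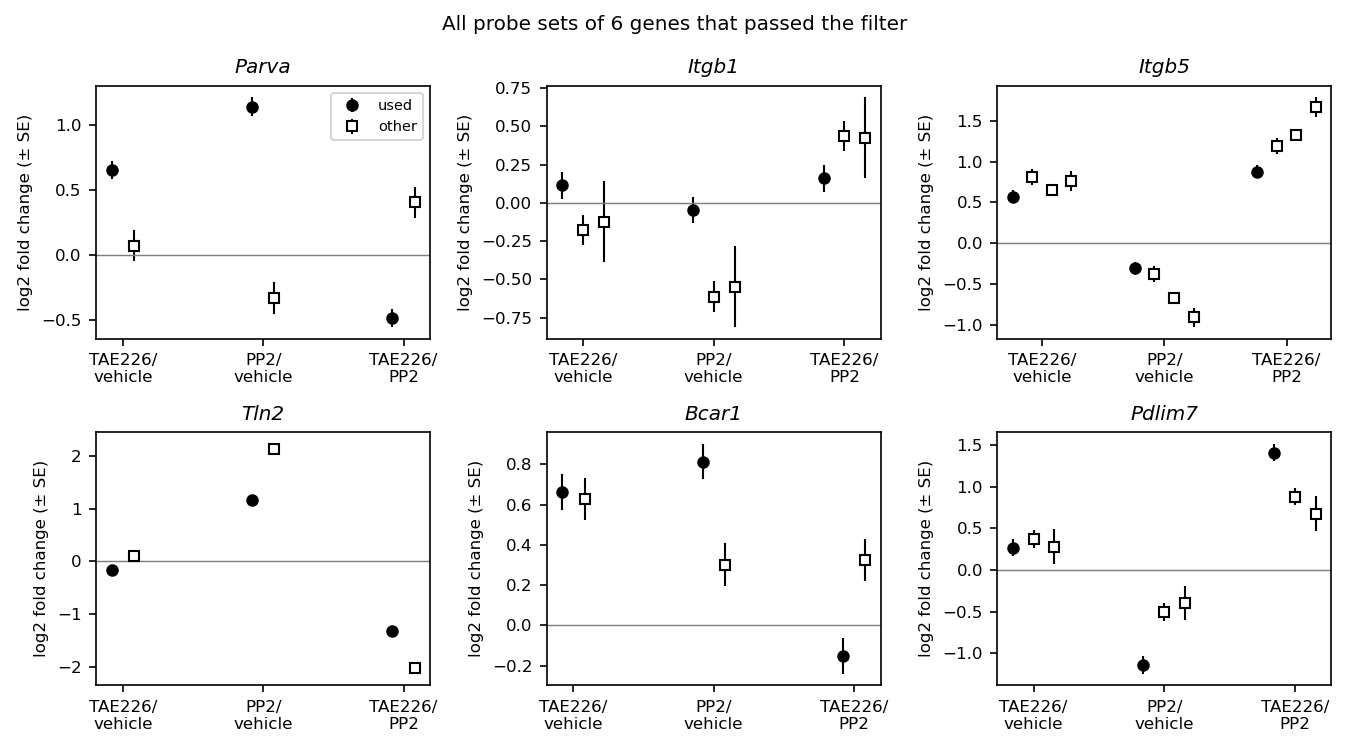
Log2 fold change (± SE) of every probe set above the filter for Parva, Itgb1, Itgb5, Tln2, Bcar1 and Pdlim7 in TAE226 over vehicle, PP2 over vehicle and TAE226 over PP2; filled circles are the chosen probe sets, open squares the others, and y axes differ. The 4 Itgb5 probe sets lie on the same side of 0 in each comparison, and the Parva pair lies on opposite sides under PP2 (1.14 and -0.33).

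The kinases themselves were part of a wider list of 82 adhesion genes that are not members, of which 58 were tested. On the deposited scale, 16 of the 58 were higher (27.6%) and 8 lower (13.8%) under TAE226, against 15% and 15.9% of all genes. Under PP2, 21 were higher (36.2%) and 19 lower (32.8%), against 25.9% and 26.9%. In TAE226 over PP2, 22 were higher (37.9%) and 13 lower (22.4%), against 23.3% and 20.2%. Under DAPT, 13 were higher and 13 lower (22.4% each), against 16.8% and 17.5%, and under U0126 21 were higher (36.2%) and 10 lower (17.2%), against 19.4% and 21.3%. Ptk2, which encodes FAK, is not analysed here. Its relative Ptk2b (PYK2) had log2 signals of 7.57, 7.97 and 8.04 under TAE226, 6.07, 5.68 and 6.29 under PP2, where all 3 were below the array median, and 7.17, 7.08 and 6.47 in vehicle. It was higher under TAE226 at 0.95 (SE 0.21, limma adjusted p = 0.00233) and at least 1.41-fold lower under PP2 (limma adjusted p = 0.00177).

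Among Src family kinases, Fyn was lower under PP2, with log2 signals of 7.40, 7.28 and 7.23 against 8.53, 8.72 and 8.23 in vehicle (-1.19, SE 0.12, limma adjusted p = 2.2e-07), and at -0.11 (adjusted p = 0.498) under TAE226. Src was higher under PP2 at 0.51 (SE 0.15, limma adjusted p = 0.00742), PP2 replicate 3 (8.95) lying closest to vehicle (8.75, 8.84 and 8.85), and Yes1 was called under neither. Ptpn12, a phosphatase that acts on p130Cas, was lower under each inhibitor, at -0.19 under TAE226, -0.80 under PP2, -0.32 under DAPT and -0.72 under U0126, each called in limma.

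Integrin ligands are the matrix proteins and latent growth factors that the receptors bind. Of 18 tested, 6 were higher (33.3%) and 3 lower (16.7%) under TAE226, against 15% and 15.9% of all genes. Under PP2, 5 were higher (27.8%), near the 25.9% of all genes, and 8 lower (44.4%), against 26.9%. In TAE226 over PP2, 9 were higher (50%) and 4 lower (22.2%), against 23.3% and 20.2%. Tnc (tenascin-C) had log2 signals of 10.29, 10.40 and 10.35 under TAE226, 6.52, 6.96 and 7.03 under PP2 and 8.50, 8.66 and 8.69 in vehicle. Fn1 (fibronectin), the ligand of α5β1 and αv integrins, had 10.70, 11.10 and 10.93 under TAE226, 8.07, 8.18 and 7.67 under PP2 and 9.14, 9.22 and 9.18 in vehicle. In both genes the 3 groups did not overlap. TAE226 over PP2 was 3.51 (SE 0.12, adjusted p = 1.7e-12) for Tnc and 2.93 (SE 0.14, adjusted p = 4.9e-11) for Fn1 in limma. Lamb1 (laminin β1) went the same way, at 0.89 under TAE226 and -0.35 under PP2. Tgfb3, a TGF-β whose latent form αv integrins can bind, and Ltbp1, which tethers that latent form to matrix, were higher under both and more so under PP2: 0.60 and 0.52 under TAE226, against 1.76 and 1.69 under PP2, all called in limma.

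**Figure D5:**
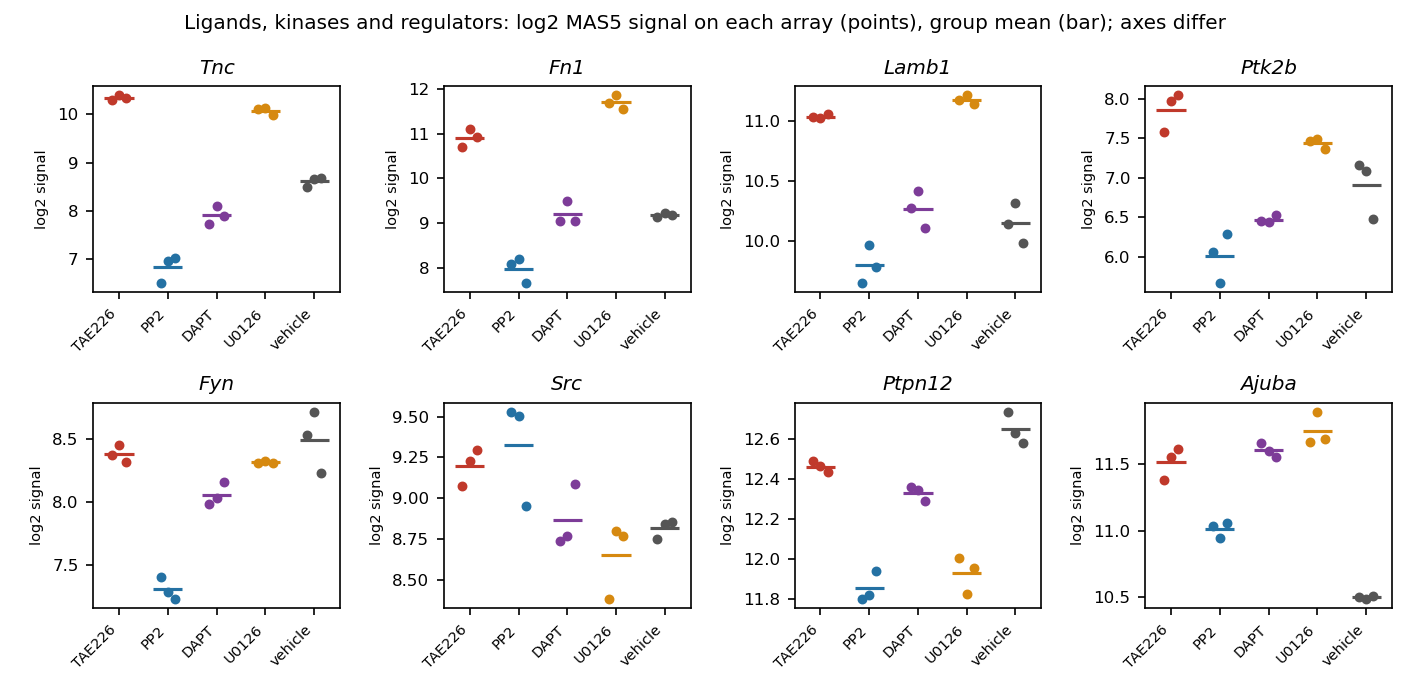
Log2 signal on each of the 3 arrays per group for adhesion genes outside the member list, with a bar at the group mean; y axes differ between panels and do not start at 0. Tnc and Fn1 are highest under TAE226 and U0126 and lowest under PP2.

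Among 20 other tested adhesion adaptors, Ajuba, a LIM protein, was higher under all 4 inhibitors, at 1.01 under TAE226, 0.51 under PP2, 1.10 under DAPT and 1.25 under U0126, each called in limma. Asap1, which regulates Arf proteins at focal adhesions, was higher under TAE226 at 0.91 and lower under PP2 at -0.41. Tns4 was higher under PP2 at 1.33, and its TAE226 value of 0.26 did not pass (limma adjusted p = 0.12). Of 9 membrane partners of integrins, PP2 lowered 4 and raised 4 (44.4% each), against 26.9% and 25.9% of all genes. Plaur, the urokinase receptor, was lower at -0.98.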

How the data were processed

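Total RNA (250 ng per sample) from 15 mammosphere cultures was hybridised to Affymetrix Mouse430_2 arrays, 3 per group. The authors deposited linear signal intensities made with Affymetrix Expression Console and MAS5, per the submitters' processing notes, whose versions and settings no source used here gives. That each array's 2% trimmed mean is 500 was read from the deposited intensities. MAS5 equalises a mean, not a distribution, so a shift of many genes one way can be spread over the others.

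The table held 45101 probe sets, 64 of them controls; the platform annotation gave 1 gene for 34945, several for 932 and none listed for 9160. By Entrez ID 34741 were matched to RefSeq genes, and 204 kept the annotation's symbol. The log2 intensities, with no pseudocount, entered limma 3.58.1 under R 4.3.3 (1 coefficient per group, intensity trend, all 15 arrays; 10 residual degrees of freedom, 6.10 prior). All tests were two-sided. The median SE of a log2 fold change was 0.10, a precision limited by the number of arrays. The fit was tested on simulated data. No 2 arrays shared more than 2 identical values.

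Values of every array were given for members called with no overlap between arrays, at most 8 per direction by size in each comparison among TAE226, PP2 and vehicle and at most 4 for DAPT and U0126, and a member so chosen was followed through the other comparisons. Itgav, Lims1, Zyx, Pxn and the members called in no comparison lay outside this rule and were added after their values were seen. The members, the wider list and these rules were chosen with earlier results of these data known. Alternatives were median centring, quantile normalization, a pseudocount, no filter, the mean of all probe sets of a gene, other handling of probe sets that may cross-hybridise, only the 2 groups compared, a replicate block, each array left out, and scaling to luminal markers.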

Additional observations from a re-analysis of the deposited data

How the results depend on the processing

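The scaling of the arrays changed the counts most. Of the 88 calls of members over the 5 comparisons, 30 lost significance and 2 turned sign under median centring, Lims1 (-0.062) and Vcl (-0.0496) for TAE226 over vehicle. Under median centring, 4 members were higher and 6 lower under TAE226, 3 higher and 13 lower under PP2, and 10 higher under DAPT, and the median change of all genes was -0.24, -0.20 and -0.12 under TAE226, PP2 and DAPT. Centring subtracts each array's log2 median. In signal, array medians were 84.7 to 90.8 under TAE226, 79.0 to 91.0 under PP2 and 76.1 to 83.7 under DAPT. They were 73.1 to 83.6 under U0126 and 66.0 to 78.7 in vehicle. Why the medians differed was not tested. Quantile normalization lost 5 calls, a pseudocount of 81 none, no filter 3, the mean of all probe sets 15, other handling of cross-hybridising probe sets 0, and only the 2 groups compared 5. Scaling to the mean of luminal markers, chosen after seeing the data, lost 8, left 3 members lower in TAE226 over PP2 and made 26 higher under DAPT.

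The number of members lower under TAE226 was 0 with quantile normalization, no filter, the mean of all probe sets, only the 2 groups compared and luminal scaling; the mean of all probe sets left 3 lower under U0126. Leaving out 1 array at a time gave 13 to 17 higher and 0 to 1 lower under TAE226, 10 to 12 and 7 to 8 under PP2, 13 to 13 and 4 to 6 in TAE226 over PP2, 13 to 16 and 2 to 3 under DAPT, 9 to 11 and 5 to 7 under U0126, and 28 to 30 differing among the groups; 36 of 528 calls were lost, none reversed. Calls for Zyx, Bcar1 and Tln2 under DAPT and for Itga6 and Parva under U0126 each ended without some single array. So did those for Itga3, Itga6 and Zyx under TAE226, Flna and Tns1 under PP2, and Tns1 and Git1 in TAE226 over PP2.

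Arrays that share a replicate number had correlated deviations of r from -0.24 to 0.20, with 6 of 30 pairs above 0.1. For arrays with different numbers r ran from -0.29 to 0.27, so shared numbers did not stand out. With so few arrays per group this cannot show whether the numbers pair samples, and the labels do not say. A fit with the replicate block gave 16 higher and 1 lower under TAE226, 11 and 8 under PP2, 13 and 5 in TAE226 over PP2, 16 and 2 under DAPT, 10 and 6 under U0126 and 29 differing among the groups, and lost 1 of the 88 calls. Calls that held under every alternative were 4 of 16 for TAE226 (Bcar1, Flna, Itgb6 and Parva), 9 of 19 for PP2 (Bcar1, Parva, Tln2, Cav1, Itgb4, Itgb5, Pdlim7, Vasp and Vcl), 11 of 19 for TAE226 over PP2, 10 of 18 for DAPT and 10 of 16 for U0126. No alternative used the dimmer Parva probe set alone, which was not called under TAE226 and was called the opposite way under PP2. Signal near the array median limits Itga2 and Tns1.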
